A study of Rattus norvegicus with 12 samples.

Results

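A set of 6 genes expressed by the stroma of lymphoid follicles, Cxcl13, Clu, Mfge8, Enpp2, Apoe and Cr2, were followed in rat intestinal mucosa after massive bowel resection. They were 6 of 13336 genes with a symbol on the array, and each was read by 1 probe. The 6 were picked from their levels in resected and sham-operated ileum, so their ileal levels and their co-variation there describe the choice and are given with no test.

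The 12 arrays (Illumina RatRef-12 BeadChip, bead-bound probes hybridized with labelled cRNA) held mucosa of male Sprague Dawley rats, all of them operated. SBS rats, the model of short bowel syndrome, had 75% of the bowel removed, and sham rats had the bowel cut and rejoined. There were 4 SBS ileal, 3 sham ileal, 4 SBS jejunal and 1 sham jejunal arrays, and no unoperated rats among them. Per the labels, 6 rats had each operation and sample quality limited the arrays. The rats' age, the days between operation and sampling and the sampled sites are not given in the labels. The SBS ileal and SBS jejunal arrays came from the same 4 rats, read from the sample codes, and the sham jejunal array from the rat of sham ileum 1.

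Follicular dendritic cells are the fixed stromal cells of B cell follicles, as in the Peyer's patches and solitary follicles of the gut. They hold complement-coated antigen on their surface, draw in B cells with a chemokine and help to clear dying germinal centre cells. Their upkeep depends on lymphotoxin and tumour necrosis factor from B cells, which signal to NF-kB through their own receptors, among them the lymphotoxin beta receptor. Cxcl13 is the chemokine of the follicle and Cr2 the complement receptor that holds antigen. Mfge8 bridges dying cells to phagocytes, Enpp2 (autotaxin) makes lysophosphatidic acid, and Clu (clusterin, a chaperone) and Apoe (a lipid carrier) are secreted proteins. None of the 6 is made by these cells alone. B cells carry Cr2, macrophages make Apoe and Mfge8, and Clu and Enpp2 have further sources.

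Promoters from RefSeq (build GRCr8, 250 bases before to 50 after the gene start) were at hand for 4 of the 6 genes, Cxcl13, Mfge8, Apoe and Cr2. The 3 sequences below are shown as examples, and the windows of Apoe, which had 3 gene starts, are not shown. Over 11 arrays, with group means removed, Pearson's r was 0.92 for Cxcl13 with Mfge8 and 0.786 for Cxcl13 with Cr2. For Mfge8 with Cr2 it was 0.671, below the 95th percentile of 0.714 over all gene pairs. Co-variation is described further on. Each sequence shown is the gene's own strand, which is the minus strand of the build. Capitals mark the motifs found among 3 searched on both strands, with no overlap between motifs in these 3 windows. The motifs were GGGANNTT, a start that many NF-kB elements share, TATAAA, the TATA box, and GGGCGG, the GC box.
Cxcl13, chr14:13917871-13918170: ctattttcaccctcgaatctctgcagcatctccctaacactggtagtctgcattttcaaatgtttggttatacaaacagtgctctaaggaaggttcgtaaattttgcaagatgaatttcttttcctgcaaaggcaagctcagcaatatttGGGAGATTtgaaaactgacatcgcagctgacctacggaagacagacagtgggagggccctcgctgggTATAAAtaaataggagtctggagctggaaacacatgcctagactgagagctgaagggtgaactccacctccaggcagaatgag
Mfge8, chr1:142489382-142489681: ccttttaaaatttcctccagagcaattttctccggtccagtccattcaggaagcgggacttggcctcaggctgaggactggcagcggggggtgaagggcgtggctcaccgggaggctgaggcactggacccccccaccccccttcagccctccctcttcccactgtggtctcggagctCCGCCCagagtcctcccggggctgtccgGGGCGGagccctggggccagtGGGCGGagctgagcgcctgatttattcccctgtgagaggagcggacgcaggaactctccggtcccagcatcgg
Cr2, chr13:109244457-109244756: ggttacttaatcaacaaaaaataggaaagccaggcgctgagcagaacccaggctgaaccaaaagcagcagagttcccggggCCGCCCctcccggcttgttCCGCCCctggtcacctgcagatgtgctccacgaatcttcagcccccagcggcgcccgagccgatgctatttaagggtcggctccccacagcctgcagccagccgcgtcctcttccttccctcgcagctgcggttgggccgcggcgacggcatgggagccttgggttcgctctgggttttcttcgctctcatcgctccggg

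The Cxcl13 window held GGGANNTT at -100 to -93 from the gene start, a pattern present in 5085 of 33469 promoter windows (15.2%) and, of the other members, in a window of Apoe. It also held TATAAA at -33 to -28, as did 14.2% of windows. GGGCGG, present in 33.1% of windows, occurred at 3 positions for Mfge8 and 2 for Cr2, and in windows of Apoe, but not for Cxcl13. The promoters differed in base composition, with 65.7% G and C for Mfge8, 63% for Cr2 and 45.3% for Cxcl13, against a median of 51.7% over all windows. A match describes the sequence only and marks no site.

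The arrays detected 7041 to 8821 of 22517 probes, and 9137 were kept, each detected at p under 0.05 on at least 3 arrays. All 6 members were kept. Mfge8 was detected on 12 arrays, and Cr2 on 5, which were the 4 sham arrays and SBS ileum 2. Levels below are background-corrected, quantile-normalized log2 signals, on which undetected members sat at 4.27 to 4.75. Levels of different genes come from different probes and are not set against each other. SBS jejunum 1 stood apart in the measured pancreatic genes. Pnlip, pancreatic lipase, was at a log2 level of 9.12 there and at 4.34 to 5.30 on the other SBS jejunal arrays. Cpa1 was at 6.23 there and at 4.65 to 4.71 on the others. SBS jejunum 4 also detected both, at 5.30 and 4.71. Cel and Amy2a3, further pancreatic genes, were detected on 0 of 12 arrays. Pancreatic RNA on SBS jejunum 1 was not tested beyond these genes. The members' SBS minus sham differences in jejunum are therefore also given without it.

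In ileum, transcripts of the 6 genes were much lower in SBS than in sham rats, and for several of them were at background on part of the SBS arrays. Cxcl13 was at 4.27, 6.29, 5.21 and 4.36 in SBS ileum (5.03 ± 0.94, SD, n = 4), against 7.58, 9.29 and 9.29 in sham ileum (8.72 ± 0.99, SD, n = 3). SBS ileum 1 and 4 did not detect it, and the highest SBS array lay below the lowest sham array. As bead signals before correction, these were 44.6 to 130.2 in SBS ileum and 240.2 to 724.2 in sham ileum. The log2 difference was -3.69 ± 0.54 (SE), and only 3 of the 9137 probes, Cxcl13 among them, had one as low.

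Mfge8, the only member detected on every array, was at 5.34, 7.47, 6.61 and 5.02 in SBS ileum (6.11 ± 1.13, SD, n = 4), against 8.32, 9.62 and 9.77 in sham ileum (9.24 ± 0.80, SD, n = 3). Its difference of -3.13 ± 0.55 (SE) therefore rests on detected signal throughout. On SBS ileum 1 and 4 that signal was close to background, with bead signals of 68.1 and 65.9. Clu was at 4.40, 5.10, 5.04 and 4.49 in SBS ileum (4.76 ± 0.36), against 6.94, 8.23 and 8.02 in sham ileum (7.73 ± 0.69). SBS ileum 1 and 4 again did not detect it. Enpp2 was at 4.69, 6.37, 6.08 and 4.53 in SBS ileum (5.42 ± 0.94), against 7.25, 8.40 and 8.56 in sham ileum (8.07 ± 0.71). It too was undetected on SBS ileum 1 and 4.

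Apoe was at 4.70, 5.86, 4.72 and 4.71 in SBS ileum (5.00 ± 0.57), against 6.51, 7.56 and 8.20 in sham ileum (7.43 ± 0.85). Cr2 was at 4.42, 5.02, 4.52 and 4.70 in SBS ileum (4.67 ± 0.26), against 5.42, 6.03 and 6.17 in sham ileum (5.87 ± 0.40). Both were detected on SBS ileum 2 alone among the SBS ileal arrays, so their SBS levels are mostly background. The log2 differences of Clu, Enpp2, Apoe and Cr2 were -2.97 ± 0.31, -2.65 ± 0.51, -2.43 ± 0.37 and -1.21 ± 0.19 (SE).

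The groups did not overlap for any of the 6 genes in ileum, where 8.43% of all probes were lower in SBS without overlap. The lack of overlap follows from how the genes were chosen. Over all probes, 2.29% were called lower in SBS ileum (limma, adjusted p under 0.05), and the members, chosen from this comparison, are not tested in it. In the authors' series matrix, which has no background correction, the differences were smaller, at -2.75 for Cxcl13, -2.51 for Mfge8, -1.99 for Clu, -1.90 for Enpp2, -1.60 for Apoe and -0.66 for Cr2. In whole mucosa, fewer cells of a type and less RNA per cell cannot be told apart.

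**Figure D1:**
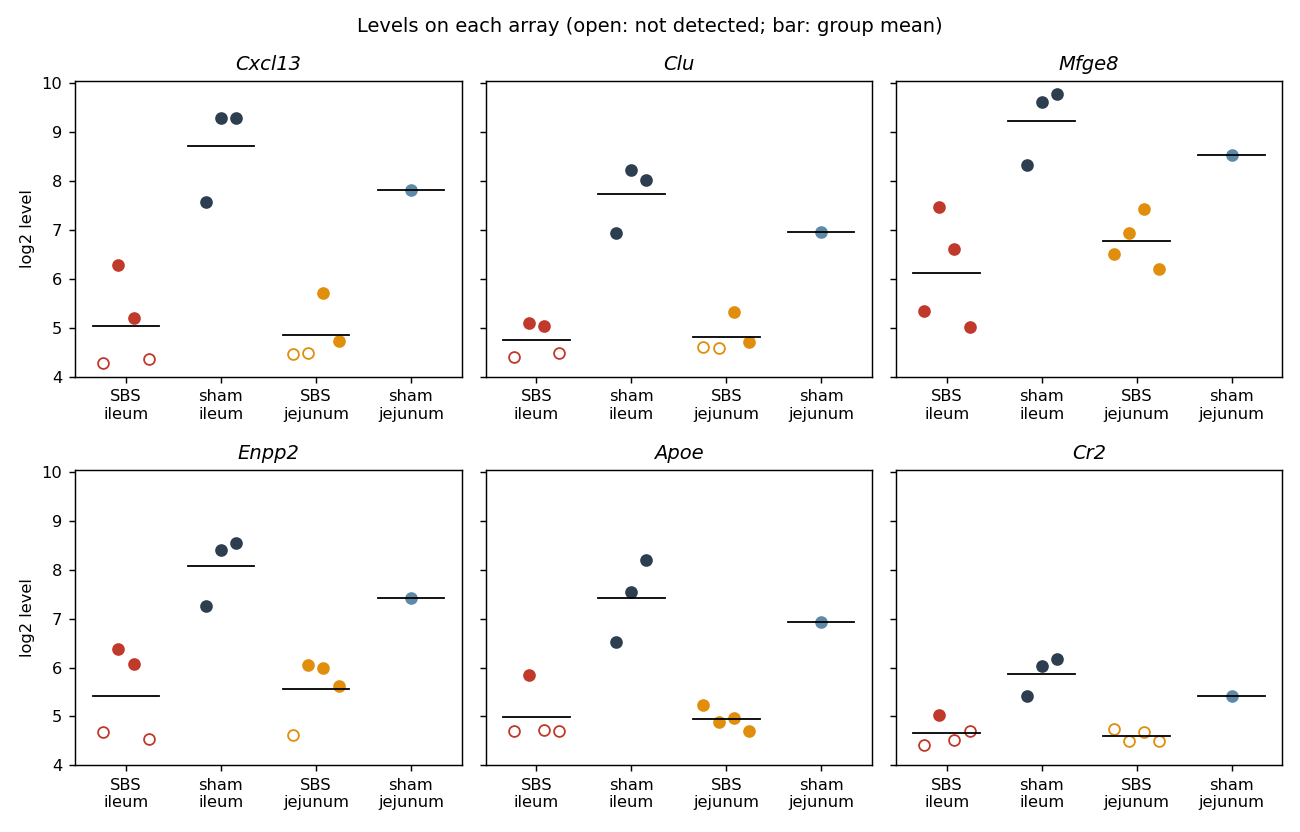
Log2 level (background-corrected, quantile-normalized) of each of the 6 genes on each array, with SBS left of sham in each region. Open symbols mark arrays on which the probe was not detected; in both regions each SBS array lies below each sham array for all 6 genes, and the sham jejunum holds 1 array.

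In jejunum, whose arrays the choice of genes did not use, the 6 genes were lower on all 4 SBS arrays than on the single sham array. These arrays came from the 4 SBS rats and 1 of the sham rats whose ileum entered the choice, so they are not separate animals. Clu passed the test, with a log2 difference of -2.16 ± 0.45 (SE; limma, adjusted p = 0.0395 over 9137 probes), a level 4.47-fold lower in SBS. It was at 4.60, 4.59, 5.32 and 4.71 in SBS jejunum (4.80 ± 0.35, SD, n = 4), against 6.97 in sham jejunum. SBS jejunum 1 and 2 did not detect it. With 1 sham array, whose spread was taken from the other groups, the call was a narrow one. Without SBS jejunum 1 the difference was -2.09, with adjusted p = 0.0569 (limma), and leaving out any of 4 other single arrays also ended the call.

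Cxcl13 was at 4.46, 4.48, 5.71 and 4.73 in SBS jejunum (4.85 ± 0.59), against 7.82 in sham jejunum. Its difference of -2.97 ± 0.79 (SE) was wider than that of Clu but did not pass (limma, adjusted p = 0.104). Apoe was at 5.23, 4.90, 4.96 and 4.70 in SBS jejunum (4.95 ± 0.22), against 6.94 in sham jejunum. It was detected on all 4 SBS jejunal arrays, but close to background, with bead signals of 61.5 to 71.6. Its 4.70 on SBS jejunum 4 lay within the range of undetected members. The difference of Apoe was -1.99 ± 0.54 (SE, limma, adjusted p = 0.116).

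Enpp2 was at 4.62, 6.04, 5.98 and 5.62 in SBS jejunum (5.57 ± 0.66), against 7.43 in sham jejunum, a difference of -1.87 ± 0.74 (SE). Mfge8 was at 6.50, 6.94, 7.42 and 6.20 in SBS jejunum (6.77 ± 0.53), against 8.53 in sham jejunum, a difference of -1.76 ± 0.81 (SE). Neither passed, with adjusted p = 0.318 for Enpp2 and 0.429 for Mfge8 (limma). Cr2 was at 4.75, 4.50, 4.68 and 4.49 in SBS jejunum, none of them detected, against 5.42 in sham jejunum. Its level was at least 1.56-fold lower in SBS, set against the lowest detected signal, and this did not pass (limma, adjusted p = 0.236). Cr2 passed the filter on detection only through sham arrays, which favours finding a lower level in SBS.

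In all, 1 of the 6 members was called in jejunum, where 1.47% of probes were called in either direction and 0.832% lower. All 6 lay below the sham array without overlap, as did 19.9% of probes. The median difference of the 6 was -1.93, against 0.0099 over all genes, and 5 of the 6 were at -1 or lower, against 3.03% of probes. Without SBS jejunum 1 the 6 differences ran from -2.85 (Cxcl13) to -0.86 (Cr2). The ileal and jejunal differences were not tested against each other.

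**Figure D2:**
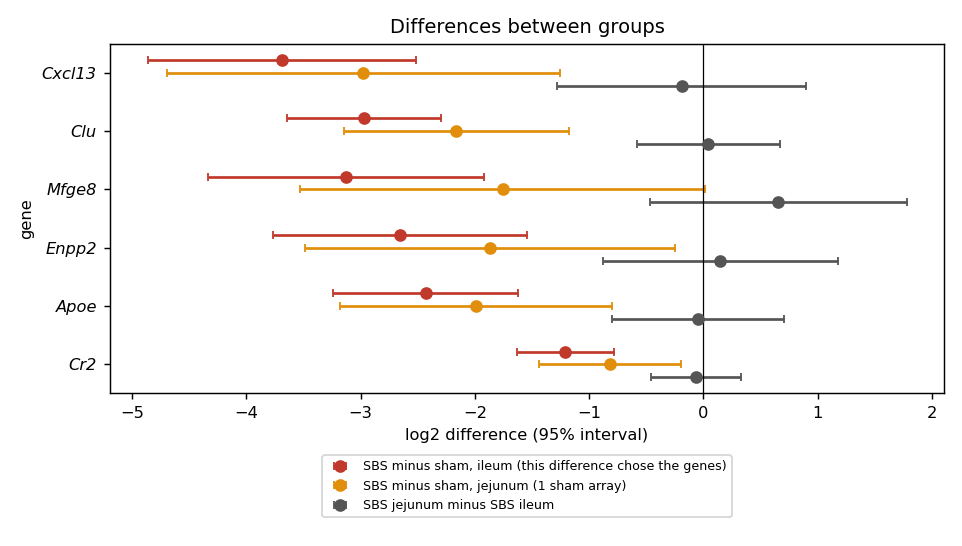
Log2 difference, SBS minus sham, of each gene in ileum and in jejunum, and SBS jejunum minus SBS ileum, with 95% confidence intervals from the linear model over 12 arrays. All 6 SBS minus sham differences are below 0 in both regions; the ileal differences chose the genes, and the jejunal intervals are wider because the sham jejunum holds 1 array.

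Between the regions of SBS rats 0 of the 6 genes was called in limma, and 0 had an unadjusted p under 0.05, while 9.29% of probes were called. SBS jejunal and SBS ileal levels overlapped for all 6. The SBS ileal arrays also entered the choice of the genes. The differences, jejunum minus ileum, were -0.19 for Cxcl13, 0.05 for Clu, 0.15 for Enpp2, -0.05 for Apoe and -0.06 for Cr2 (limma, adjusted p = 0.899 to 0.964). Mfge8 had the widest, 0.66 (95% interval -0.46 to 1.78; limma, adjusted p = 0.562). The interval of Cxcl13 was -1.28 to 0.90, so that neither interval limits the genes to the same level in both regions. Without SBS jejunum 1, 0 of the 6 was called in limma either, with differences from -0.14 (Apoe) to 0.75 (Mfge8).

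In the rat of SBS ileum 2 and SBS jejunum 2, all 6 genes were lower in jejunum than in ileum, by -1.81 to -0.33 on the log2 scale, beside a median absolute difference of 0.231 over all probes in that rat. In the other 3 SBS rats the median differences over the 6 genes were 0.265, 0.265 and 0.295, for SBS arrays 1, 3 and 4. These were close to the median absolute differences over all probes of 0.267, 0.248 and 0.243. Single genes ranged more widely in these rats, from -0.07 to 1.16, -0.09 to 0.81 and -0.21 to 1.18. Mfge8 was the highest in each of them, and Enpp2 was at 1.08 for SBS arrays 4. In the sham rat with both regions, jejunum minus ileum was 0.00 to 0.43 with a median of 0.19, beside a median absolute difference of 0.206 over all probes in that rat. In mean level, sham ileum was highest, the sham jejunal array next and the SBS groups lowest for all 6 genes. The sham jejunal array lay within the range of the sham ileal arrays for 5 genes and at its lower end for Cr2, so these neighbours were not separated by their spread.

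Within the ileal groups, the 6 genes varied together from array to array. Among the sham ileal arrays, sham ileum 1 was lowest for all 6 genes, as it was for 35.2% of probes, and its mean deviation from the group mean was -0.84. Among the SBS ileal arrays, SBS ileum 2 was highest for all 6, as it was for 22.5% of probes, with a mean deviation of 0.85. Both held at once for 11.5% of probes. The SBS jejunal arrays, which the choice did not use, were less uniform. SBS jejunum 3 was highest for Cxcl13, Clu and Mfge8, as it was for 15.3% of probes, whereas Enpp2 was highest on SBS jejunum 2 (18.4% of probes) and Apoe and Cr2 on SBS jejunum 1 (36.3% of probes).

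**Figure D3:**
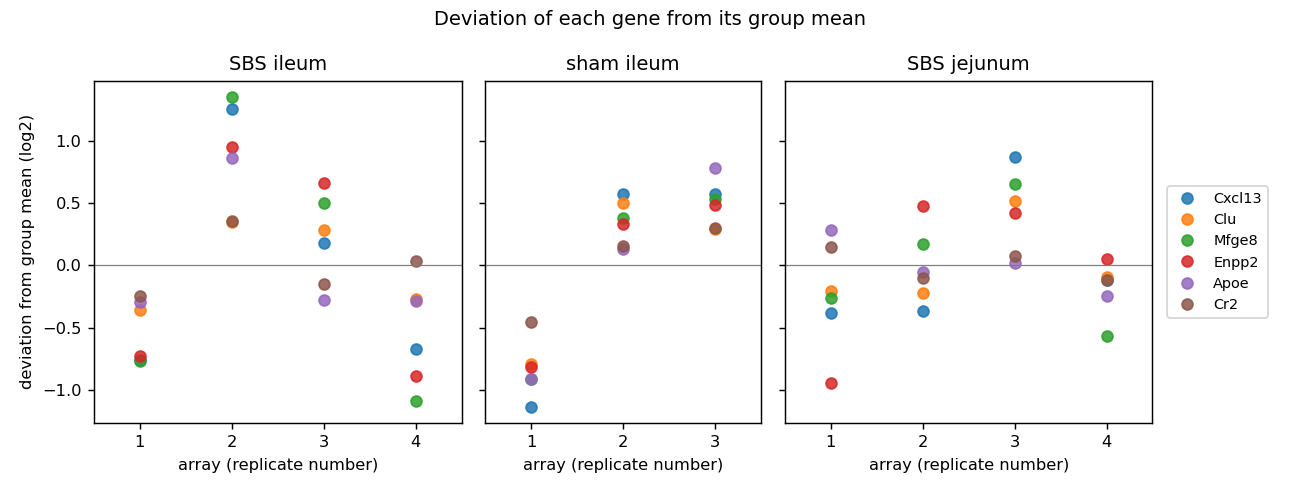
Deviation of each gene from its group mean (log2) on each array, for the 3 groups with over 1 array. All 6 genes lie above their mean on SBS ileum 2 and below it on sham ileum 1, while on SBS jejunum 1 Enpp2 lies lowest and Apoe and Cr2 lie above their means.

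Over the 7 ileal arrays, each from a separate rat, the mean correlation of group-centred levels over the 15 pairs of genes was 0.855 (Pearson's r; mean Spearman's rho 0.83). Over all pairs of 6704 genes the median r was 0.002 and the 95th percentile 0.778. With the 4 SBS jejunal arrays added, 11 arrays from 7 rats, the mean r was 0.767 and the mean rho 0.739, against a 95th percentile of 0.714. Of these 11 arrays, 7 were the ileal ones that entered the choice, and no correlation was taken within SBS jejunum alone. There the genes did not all move together. On SBS jejunum 1 Enpp2 deviated from its group mean by -0.947, Apoe by 0.283 and Cr2 by 0.145. Values of an array share its depth and labelling, and SBS rats gave 2 arrays each, so these correlations are descriptions. Without sham ileum 1 the mean r over the remaining arrays was 0.648, and without SBS ileum 2 it was 0.694. Without sham ileum 1 and SBS ileum 4, whose mean deviations of -0.84 and -0.53 lay farthest from the median of the 7 ileal arrays (0.20, on SBS ileum 3), it was 0.653 over 9 arrays and 0.816 over the 5 ileal ones.

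The 6 genes did not form one even block. Over the 7 ileal arrays the closest pair was Mfge8 with Enpp2 (r = 0.986), and over the 11 arrays it was Apoe with Cr2 (r = 0.94), followed by Cxcl13 with Clu (r = 0.932) and Cxcl13 with Mfge8 (r = 0.92). The loosest pairs over the 11 arrays joined Enpp2 to Cr2 (r = 0.469) and to Apoe (r = 0.55). Cxcl13 had the highest mean correlation with the other 5, 0.849, and Enpp2 the lowest, 0.704. Cr2 was undetected on 7 of the 8 SBS arrays and Apoe on 3, SBS ileum 1, 3 and 4. Cxcl13 and Clu were undetected on SBS ileum 1 and 4 and SBS jejunum 1 and 2. Enpp2 was undetected on SBS ileum 1 and 4 and SBS jejunum 1. On those arrays the levels hold background, so the correlations of these 5 genes rest in part on it.

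**Figure D4:**
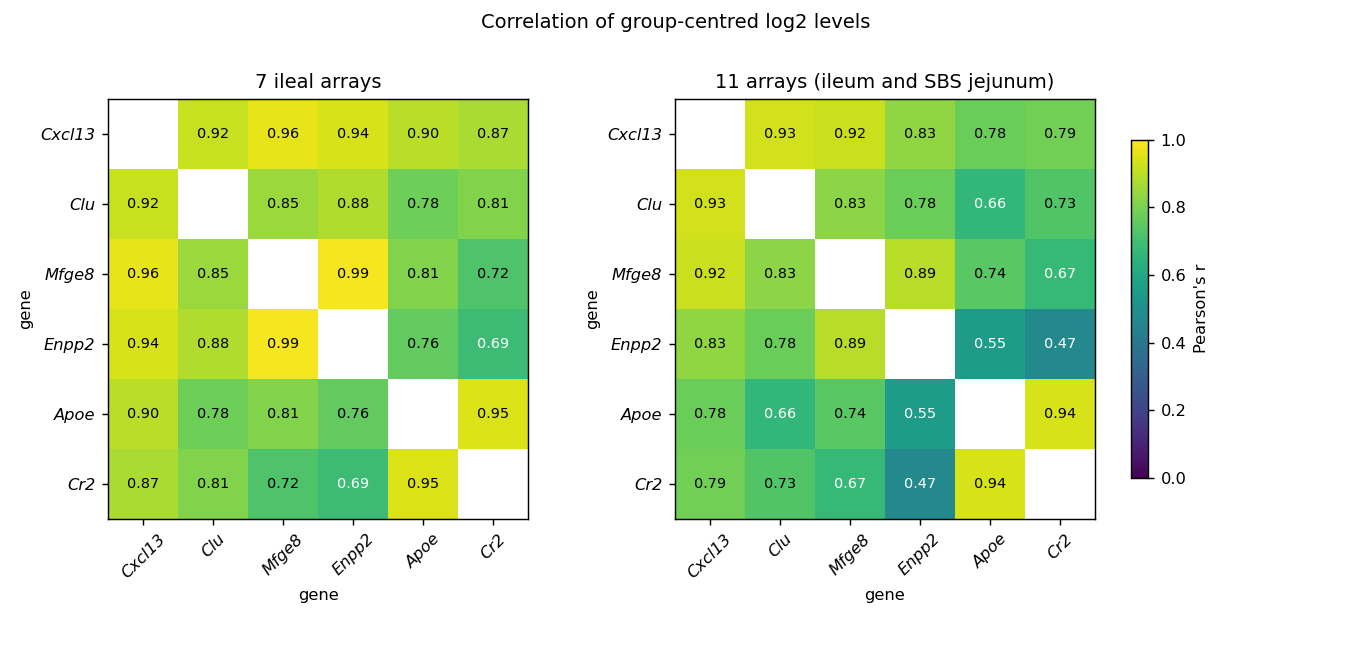
Pearson's r of group-centred log2 levels for each pair of the 6 genes, over the 7 ileal arrays (left) and over the 11 arrays of ileum and SBS jejunum (right). All 15 pairs are positive in both panels, which share the 7 ileal arrays that entered the choice. The lowest value, 0.47, is that of Enpp2 and Cr2 over 11 arrays.

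The label of follicular stroma was set against other genes of these cells and of their neighbours. Of 16 further genes of follicular stroma, 14 were on the array and 8 were measured. Fcer2 and Fcgr2b, Fc receptors that follicular dendritic cells carry, and Coch, a secreted protein of these cells, were detected on 0 of the 12 arrays. The arrays thus held signal of the 6 genes without these further markers, and which cells the transcripts came from was not measured. In SBS ileum, where 2.29% of all probes were called lower, 3 of the 8 measured genes fell and the other 5 did not pass. The median difference of the 8 was -0.88, against 0.0351 over all genes and -2.81 for the 6 members.

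Ccl19, a chemokine of the T cell zone and follicle stroma, fell in SBS ileum by at least 2.93-fold (limma, adjusted p = 0.0115). It was undetected on all 4 SBS ileal arrays and detected on all 3 sham ileal arrays. Madcam1, an adhesion molecule of gut vessels and follicular stroma, fell by 1.01 ± 0.19 on the log2 scale (SE; limma, adjusted p = 0.0176). Icam1, a further adhesion molecule, fell by 0.88 ± 0.18 (SE; limma, adjusted p = 0.0264). These calls were lost under some settings, Ccl19 in 2, Madcam1 in 3 and Icam1 in 6 of 16. Ccl19 was detected on sham arrays alone, and Icam1 on those and SBS ileum 2. Both passed the filter on detection only through sham arrays, which favours finding a fall. In jejunum 0 of the 8 passed in limma, and 1 had an unadjusted p under 0.05. Prnp, the prion protein, which follicular dendritic cells display, was higher in SBS jejunum than in SBS ileum by 1.71 ± 0.27 (SE; limma, adjusted p = 0.00189).

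Some B cell genes were lower in SBS ileum as well. Of 12 listed, 8 were on the array and 4 measured. Of these 2 fell in SBS ileum, where 2.29% of all probes were called lower. Cd37, at -1.14 ± 0.285 (SE, limma, adjusted p = 0.0551), did not pass. Blk was level, at -0.03 ± 0.13 (SE, limma, adjusted p = 0.942). Ms4a1, the B cell surface protein CD20, was at 4.53 ± 0.34 in SBS ileum (SD, n = 4) and 6.70 ± 0.70 in sham ileum (SD, n = 3), with adjusted p = 0.00391 (limma). Cd79b, a signalling chain of the B cell receptor, was at 5.05 ± 0.30 in SBS ileum and 7.28 ± 0.82 in sham ileum, with adjusted p = 0.00461 (limma). Both kept the call in all 16 settings tried. Ms4a1, detected on all sham arrays but among SBS arrays on SBS ileum 2 alone, passed the filter on detection only through sham arrays. The fall of these B cell genes was known when the list was drawn up and is not independent evidence.

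The summed signal of the 4 B cell genes was 220.9 to 321.6 in SBS ileum and 381.3 to 728.3 in sham ileum, and 224.8 to 277.5 in SBS jejunum against 389.3 in sham jejunum. Like the 6 members, it was lowest on sham ileum 1 and highest on SBS ileum 2 within the ileal groups. In jejunum 0 of the 4 passed in limma and 2 had an unadjusted p under 0.05: Cd79b was at -1.93 ± 0.44 (SE; adjusted p = 0.0597) and Ms4a1 at least 2.30-fold lower (adjusted p = 0.0945). Cd22, Pax5, Blnk and Cxcr5, the receptor for Cxcl13, were detected on 0 of 12 arrays. S1pr2, a receptor that keeps B cells in the germinal centre, fell in SBS ileum, with a log2 difference of -1.38 ± 0.26 (SE; limma, adjusted p = 0.0166; called in 13 of 16 settings, with adjusted p up to 0.104). Bcl6, the germinal centre transcription factor and the other measured gene of its list, did not pass.

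Of 3 measured plasma cell genes, Mzb1, a chaperone of antibody assembly, fell in SBS ileum, with a log2 difference of -1.19 ± 0.24 (SE; limma, adjusted p = 0.0245; called in 10 of 16 settings). It was detected on 1 of the 4 SBS ileal and all 3 sham ileal arrays. The other 2 did not pass. In the list of lymphotoxin and NF-kB signalling, the pathway that keeps follicular stroma, 9 of 13 genes were measured. Ltb, lymphotoxin beta, fell by at least 1.78-fold in SBS ileum (limma, adjusted p = 0.0276), a call kept in 10 of 16 settings. It was detected on all sham arrays and on no SBS array. Ltb thus passed the filter on detection only through the group where it was high, which favours finding a fall. The other 8 did not pass the test. The median difference of the 9 was -0.04. Nfkb2, which encodes the p100 precursor of the pathway, was lower in SBS jejunum than in SBS ileum by 0.86 ± 0.13 (SE; limma, adjusted p = 0.00116).

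Of 21 binding partners and receptors of the 6 gene products, 6 were measured and 0 passed in ileum in limma, where 2 had an unadjusted p under 0.05. Lpar1, a receptor for the lysophosphatidic acid that Enpp2 makes, fell in SBS jejunum, with a log2 difference of -1.19 ± 0.24 (SE; limma, adjusted p = 0.0321), a call kept in 12 of 15 settings, among them that without SBS jejunum 1 (limma, adjusted p = 0.046). It was at 7.18 ± 0.11 in SBS jejunum (SD, n = 4) and 8.35 ± 0.30 in SBS ileum (SD, n = 4), a difference of -1.16 ± 0.15 (SE; limma, adjusted p = 0.000484). Cd81, a partner of Cr2 on B cells, was higher in SBS jejunum than in SBS ileum by 0.72 ± 0.20 (SE; limma, adjusted p = 0.0483). That call was kept in 5 of 16 settings, with adjusted p up to 0.132 in limma.

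Markers of other cells, some of which make members of the 6, were summed on each array. Of 5 measured macrophage genes 0 passed in ileum in limma and 0 had an unadjusted p under 0.05, with a median difference of -0.60. Their summed signal was 451.1, 1475.4, 893.1 and 415.1 in SBS ileum 1 to 4, a range that takes in the 942.2 to 1160.6 of sham ileum. Of 4 measured fibroblast genes 0 passed in limma and 0 had an unadjusted p under 0.05, with summed signals of 253.9, 1106.3, 689.3 and 216.7 in SBS ileum 1 to 4 and 465.9 to 745 in sham ileum. The 2 measured smooth muscle genes summed to 107.5, 246.5, 193.6 and 108.6 in SBS ileum 1 to 4, both undetected on SBS ileum 1 and 4, and to 216.3 to 235.1 in sham ileum. The summed signal of the 6 members was 327.3, 771.1, 533.8 and 346.9 in SBS ileum 1 to 4, so that in all 3 lists, as for the members, SBS ileum 2 and 3 were high and SBS ileum 1 and 4 low. Sham ileum 1, by contrast, was the highest sham ileal array for fibroblast genes, at 745. Epithelial genes, all 6 of them detected on all arrays, had overlapping sums of 19554.1 to 24455.5 in SBS ileum and 21896.7 to 26084.3 in sham ileum. The part of these cells in the members' levels was not tested. Of 5 T cell, 2 dendritic cell, 2 smooth muscle, 1 follicle-associated epithelial and 2 pancreatic genes measured, 0 passed in ileum in limma, with 1 T cell and 1 smooth muscle gene at an unadjusted p under 0.05. No gene of the endothelial and enteric glial lists was measured.

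Over the 11 arrays the median correlation of a list's genes with the 6 members was 0.751 for the 2 germinal centre genes, 0.716 for the 4 B cell genes and 0.625 for the 8 further stromal genes. It was 0.556 for macrophage, 0.49 for smooth muscle, 0.417 for T cell, 0.408 for fibroblast and 0.357 for dendritic cell genes. The medians were near 0 for epithelial genes, at -0.088 (range -0.371 to 0.136), plasma cell genes, at 0.003 (-0.425 to 0.264), and the lymphotoxin and NF-kB list, at -0.089 (-0.519 to 0.665, the highest being Ltb). Within the stromal list the values ran from 0.021 to 0.756.

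**Figure D5:**
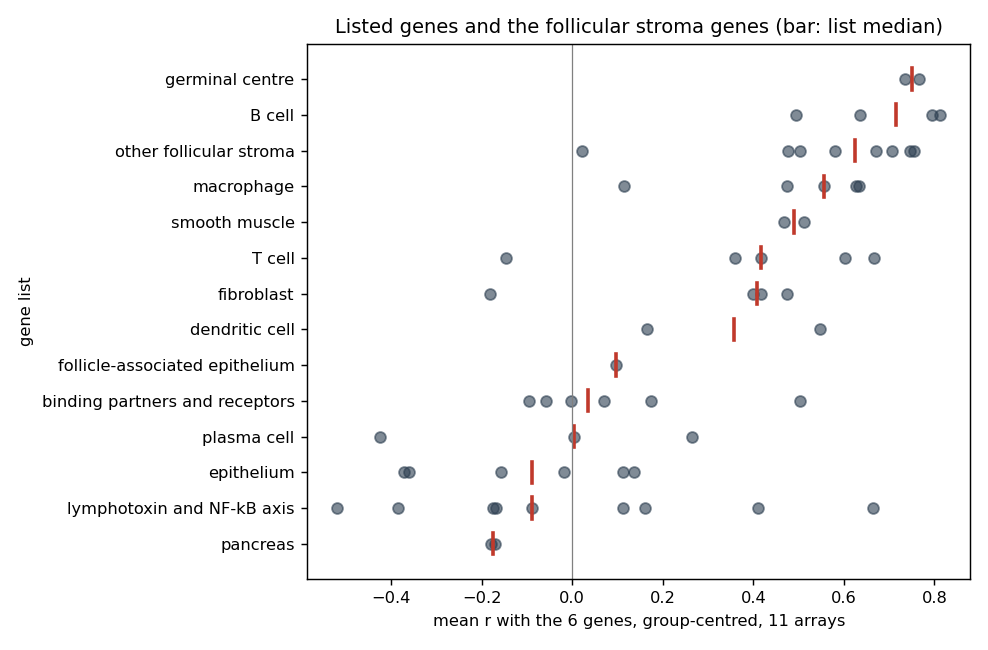
Mean Pearson's r of each measured gene with the 6 members, by list, over 11 arrays with group means removed; each point is a gene and each bar a list's median. B cell and germinal centre genes lie at 0.495 to 0.813, and epithelial genes at -0.371 to 0.136.

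The 8 genes outside the 6 whose levels followed them most closely, by mean r over the 11 arrays, were Fxyd5, Il6r, Map4k1, Prkcb, Septin1, Ncf1, Rcsd1 and Rac2, with mean r of 0.847 to 0.861. Among them are Rac2 and Ncf1, parts of the oxidase system of blood cells, Map4k1, a kinase of lymphoid and myeloid cells, Prkcb, a kinase of B cell receptor signalling, and Il6r, the interleukin 6 receptor. All 8 fell in SBS ileum (limma, adjusted p = 0.00674 to 0.0491), by a median of 1.36 on the log2 scale. Of all probes, 2.29% were called lower there. Fxyd5 was detected on all sham arrays, on 1 SBS ileal array and on 0 SBS jejunal arrays. It passed the filter on detection only through sham arrays, which favours finding a fall. Prkcb had the widest difference, -2.56 ± 0.46 (SE). In jejunum 0 of the 8 passed in limma and 7 had an unadjusted p under 0.05, as had 1086 of 9137 probes. All 8 differences were below 0, as were 48.6% of those of all probes. The median of the 8 was -1.12, and Septin1 had adjusted p = 0.0597 (limma). The same arrays gave the likeness and, in part, the difference, and the members that these genes follow were chosen from ileum.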

How the data were processed

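The deposited signal table held the linear bead signal intensity of each probe before any scaling between arrays, and the detection p-value the authors deposited beside it. The authors' series matrix held log2 values, found to be the quantile-normalized log2 signals without background correction (largest difference 5e-06). Scanner software and genome build: not given in the sources used here. Every value column was used, and no other per-sample columns were present.

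Signals were background corrected with normexp from the detection p-values (offset 16), put on the log2 scale and quantile normalized (limma 3.58.1, R 4.3.3). Of 22517 probes, the 9137 with detection p under 0.05 on 3 or more of 12 arrays were kept; 6813 of these had a symbol, for 6704 genes. Symbols came from the platform annotation, joined to RefSeq through the Entrez identifier (13747 probes) or the accession (5); 4 were updated and 8730 probes had none. For several probes of a gene the brightest was used. The number of arrays limits the precision.

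A limma model (lmFit, eBayes) had 1 mean per group over 12 arrays; p-values were two-sided and Benjamini-Hochberg adjusted over 9137 probes. For a probe undetected throughout a group, a lower bound of the fold used the higher of its own level and the lowest detected level on each array. The procedure was tested on simulated data. The members and the 16 gene lists were chosen with earlier results of these data known. Named genes are the members, the 8 genes with the highest mean correlation with them, up to 4 called genes per list, and defining cell markers; single members of a list named for contrast were chosen after their values were seen.

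Sample codes were taken for animal codes, though no label says so, and nothing else says that samples came from separate animals. SBS arrays with the same code deviated together from the group means in jejunum and ileum (correlations 0.66, 0.467, 0.193 and 0.444 across probes), so the codes were taken to pair them. Alternatives were other background corrections and scalings, filters, array subsets, a rat block and leaving out each array; leaving out rat 36, or the farthest ileal arrays, was added after seeing the data.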

Additional observations from a re-analysis of the deposited data

Results flagged for a closer look

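Values for 2 genes stood apart from their group by the gap to the nearest array over the group's range, past Dixon's limit for 4 arrays. Clu on SBS jejunum 3 was at a log2 level of 5.32 (ratio 0.832), above the other SBS jejunal arrays. Apoe on SBS ileum 2 was at 5.86 (ratio 0.987), the only SBS ileal array that detected it. In all 12 sets of 4 arrays were tested, and chance alone marks about 1 in 20 such sets.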

How the results depend on the processing

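All 6 members stayed below sham in ileum and jejunum under every setting run, which were 7 or 8 other settings and 11 or 12 left-out arrays per gene. The jejunal call of Clu was the exception in significance: it was kept with cyclic loess and in 6 of 11 leave-one-out fits (lost without sham ileum 3, SBS ileum 3, or SBS jejunum 1, 2 or 4), and otherwise had adjusted p = 0.0518 to 0.135 in limma, highest with no filter (-2.16) and 0.103 in the series matrix (-1.32). Apoe passed in jejunum without sham ileum 1 (adjusted p = 0.0475). Leaving out the sham jejunal array gives no jejunal comparison. In ileum, where the genes were chosen, a call of a member is no test, and only the differences are given. Over leave-one-out fits these ran from -4.26 to -3.40 for Cxcl13, -3.37 to -2.72 for Clu and -3.58 to -2.76 for Mfge8. For Enpp2 they ran from -3.06 to -2.36, for Apoe from -2.88 to -2.04 and for Cr2 from -1.44 to -1.06. Ileal differences moved most with the background: without it, or with offset 50, Cxcl13 was at -2.75 or -2.73, Clu at -1.99 or -2.02, Apoe at -1.60 or -1.65 and Cr2 at -0.66 or -0.65. Between regions of SBS rats no member passed under any setting, but signs of Cxcl13, Clu, Enpp2, Apoe and Cr2 varied. With the rat as a replicate block, 1273 probes were called between SBS regions, against 849 without, and the block changed no member's call.

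Of all probes, 134 were called in jejunum, 58 higher and 76 lower. With median scaling this was 80 (50 higher, 30 lower), with no filter 72, with probes detected on all 12 arrays 86, and with only the compared arrays 21; leave-one-out counts ran from 94 to 179. In ileum 269 were called (60 higher, 209 lower), 171 with no filter, 79 with probes detected on all 12 arrays and 128 without rat 36. Leave-one-out counts ran from 23 to 330, with 23 without sham ileum 2, 26 without sham ileum 3 and 125 and 162 without SBS ileum 1 and 4. Median scaling moved the ileal split to 21 higher and 212 lower, the split between SBS regions from 448 and 401 to 492 and 234, and the median of all probes in ileum from 0.034 to -0.089. Leave-one-out counts between SBS regions ran from 594 to 936, and the members' mean correlation from 0.648 to 0.828. The causes were not tested. Dim signal limits Cr2, Apoe, Clu, Cxcl13 and Enpp2 on SBS arrays, where the size of a difference depends on the background correction.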
